A study of Rattus norvegicus with 24 samples.

Results

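Collagen genes were followed by RNA sequencing in left kidneys from 24 PKD/Mhm (Cy/+) rats, all of them male. A collagen gene was taken as a gene with a symbol of the form Col, number, a, number that reached 10 estimated counts in at least 6 animals. The tables held 27 genes of that form among 17334, and 26 met the rule. They were 10 fibrillar collagens, 3 type IV collagens and 13 other collagens, and all 26 were among the 12778 genes tested. Of the 26, 21 reached 10 counts in all 24 animals. Just inside the rule were Col2a1, with 10 counts or more in 14 animals, and Col6a4, with 18 animals. Col26a1 was just outside, with at most 6 counts in any animal. A further 17 rat genes of that symbol form, among them Col4a2, Col4a5, Col6a1, Col6a3 and Col12a1, were not analysed here.

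All animals were 8 months old and heterozygous for the Cy allele, a missense change in Anks6 that leads to cystic kidneys. The carriers had been told by palpation. The 6 control animals (Ctrl) were untreated. Another 6 received CoCM, a conditioned medium taken from human skin-derived stromal cells of the ABCB5+ type kept with macrophages derived from the THP-1 line and stimulated with interferon gamma and lipopolysaccharide. Its route is given as intravenous in the study's methods and as intraperitoneal in its abstract. The remaining groups of 6 received the ABCB5+ cells by intraperitoneal (i.p. ABCB5+) or intravenous (i.v. ABCB5+) injection. Treatments were given monthly for 6 months. Controls carried animal numbers up to 24 and treated animals numbers from 26 to 43, so that animal order and treatment cannot be told apart.

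Collagens are proteins of 3 chains wound into a helix. Fibrillar collagens, with types I and III as the bulk, form the interstitial fibres that accumulate when fibroblasts and pericytes are activated in a scarred kidney. Type IV collagens form the meshwork of basement membranes. The chain pair of Col4a1 and Col4a2 is found under most epithelia and vessels, whereas Col4a3, Col4a4 and Col4a5 form the network of the mature glomerular basement membrane and are mutated in Alport syndrome. The other collagens sit on fibrils, in beaded filaments, in basement membrane zones or in the plasma membrane.

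Totals were between 9304630 and 14125457 estimated counts per kidney. Markers of the kidney were present in all libraries, with Umod at 671 TPM or more, Slc34a1 at 357 or more and Aqp2 at 255 or more (TPM, a level scaled to transcript length and to the library total). Pvalb, listed as a marker of the distal convoluted tubule, was at 0 in most kidneys. Of the 3 cartilage markers, listed as genes that should be near 0, Acan did not exceed 0.251 TPM and Comp 1.17 TPM. The third, Sox9, was at 20.7 to 80.8 TPM. CoCM animal 39, i.p. ABCB5+ animal 38 and i.v. ABCB5+ animals 36 and 37 stood apart from the other 20. In animals 36, 37, 38 and 39 the 6 injured tubule markers summed to 742, 707, 508 and 474 TPM, against 6732 to 14277 in the others, and all 6 were lowest in these animals. The 7 proximal tubule markers summed to 4353, 4494, 3128 and 3826 TPM, against 729 to 3195. Of these 7, 3 had their 4 highest values there, and Slc34a1 made up 2810 of the 4353 TPM in animal 36. Slc5a12 was at 13.7, 23.7, 17.9 and 9.22 TPM, below its median of 25.4 over all kidneys. Class medians and some of the genes with the smallest p-values are therefore given with and without these animals. The remaining genes are given with all animals only. In whole tissue, fewer cells of a type and less RNA per cell cannot be told apart.

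The collagens together held between 0.0215% and 0.132% of all TPM in a kidney. Col4a1 was the highest of the 26 by group median in all 4 groups. Its level in Ctrl was 198 ± 32.9 TPM (SD, n = 6). Col3a1, the chain of type III collagen, followed at 189 ± 89.9 TPM and Col18a1, which carries the endostatin fragment, at 147 ± 21.6 TPM. The Ctrl ranges of these genes overlapped. Within each of the 6 Ctrl kidneys Col4a1 lay above Col18a1, while the place of Col3a1 varied from kidney to kidney. Col1a1 was at 88.6 ± 35.9 TPM and Col6a2, a chain of the beaded filaments, at 85.0 ± 22.8 TPM. At the lower end were Col9a1, Col23a1, Col2a1 and Col6a4, each with a mean under 1 TPM in every group. Col2a1 is the main collagen of cartilage, and its highest value in any kidney was 0.472 TPM, from at most 17 counts.

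Summed over members, fibrillar collagens held a median of 43.6% of collagen TPM in Ctrl, type IV collagens 23.98% and the other collagens 32.4%. In Ctrl the summed fibrillar level ranged from 245 to 663 TPM and the summed type IV level from 162 to 255 TPM. The median fibrillar share was 39.2% for CoCM, 42.1% for the i.p. and 37.9% for the i.v. cells. The median type IV share was 24.4%, 24.4% and 27.4% in the same order. All these shares lay within the Ctrl range of 32.1% to 51.9% for fibrillar and 19.97% to 31.7% for type IV collagens. The type IV share lacks Col4a2. When Col15a1, Col18a1 and Col7a1, which also belong to basement membrane zones, were counted with type IV, the median share in Ctrl was 42.9%.

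**Figure D1:**
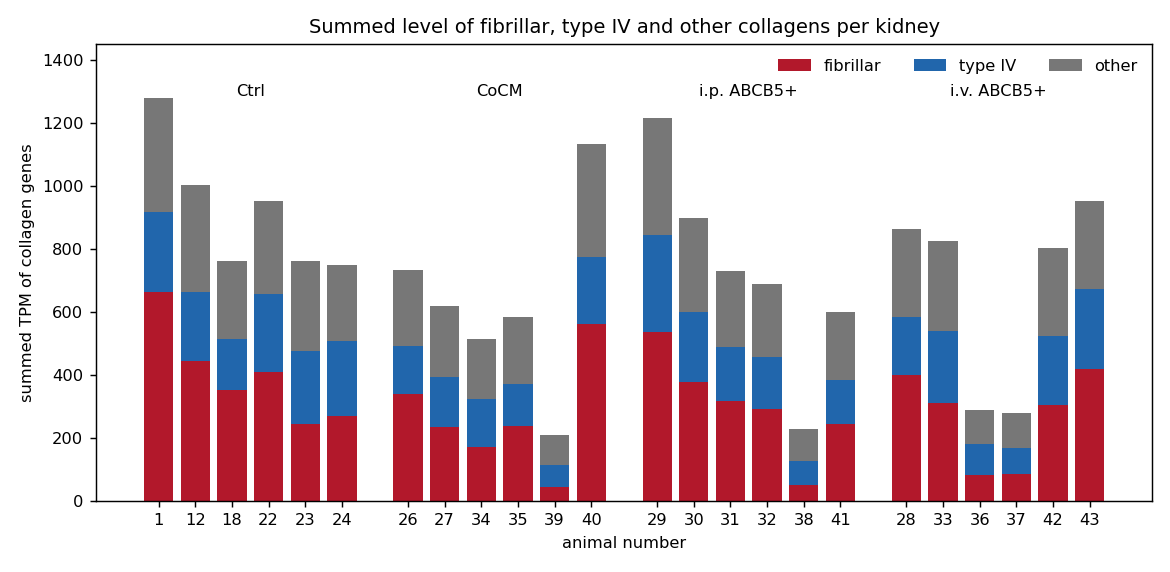
Summed TPM of the 10 fibrillar, 3 type IV and 13 other collagens in each of the 24 kidneys, by group and animal number. Animals 36, 37, 38 and 39 reached 290, 277, 229 and 209 TPM in total, and the other 20 kidneys lay between 515 and 1278.

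The spread between kidneys differed greatly from gene to gene. The ratio of the highest to the lowest TPM over 24 kidneys was 46.4 for Col11a1, a minor fibrillar chain that limits fibril width, 43.6 for Col3a1 and 37.8 for Col8a1, a short-chain collagen of vessel walls. It was 2.67 for Col18a1 and 2.56 for Col9a2. The lowest values of Col11a1 and Col3a1 were those of animal 39, and that of Col8a1 was of animal 38. Within Ctrl the ratio reached at most 6.07, for Col4a3. Ctrl animal 1 was the highest of the 6 controls for 12 members, among them Col3a1 at 347 TPM and Col1a1 at 153 TPM, and the lowest of them for 7 members, among them Col4a3 at 3.77 TPM and Col27a1 at 4.96 TPM.

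Animals 36 to 39 held the 4 lowest values for 15 of the 26 members, against 22.8% of 12790 genes that met the same count rule. By class these were 6 of 10 fibrillar, 1 of 3 type IV and 8 of 13 other collagens. This is a description, since the animals were singled out on the same libraries. Col3a1 was at 26.3, 30.9, 12.7 and 7.95 TPM in animals 36, 37, 38 and 39, against 68.5 to 347 in the other 20. Col11a1 was at 0.831, 1.01, 0.989 and 0.393 TPM against 5.36 to 18.2. Col15a1, a collagen of basement membrane zones, was at 4.34, 4.01, 2.42 and 2.13 TPM against 14.2 to 48.3. Thus the highest of these 4 kidneys lay below the lowest of the rest for each of these genes. Col18a1, of the same subfamily as Col15a1, showed the same order over a narrower range, with 75.5, 68.7, 77.9 and 74.3 TPM against 118 to 184.

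A further 9 members were not below the other kidneys in any of the 4 animals. They included Col4a3 and Col4a4, and the fibrillar genes Col27a1, Col11a2 and Col2a1. Col4a4 was at 20.8, 20.8, 20.2 and 15.8 TPM in animals 36, 37, 38 and 39, against 4.79 to 25.8 in the others. Col13a1, a transmembrane collagen of cell junctions, was the member for which these animals were the 4 highest. It was at 2.55, 1.95, 2.21 and 2.09 TPM against 0.484 to 1.86, where 3.54% of genes had their 4 highest values there. Its counts were low, with at most 70 in a kidney.

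The fibrillar share of collagen TPM was 28.1%, 30.5%, 22.4% and 20.4% in animals 36 to 39, and 32.1% to 51.9% in the others. The 8 fibroblast and mural markers summed to 444, 374, 407 and 399 TPM in the same animals, against 744 to 1970, and 6 of the 8 were lowest there. The 4 macrophage markers summed to 31.2, 35.1, 23.02 and 11.96 TPM against 88.3 to 206, with Cd163 at 0.161 TPM or less. The part of these cell types in the collagen levels was not tested.

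**Figure D2:**
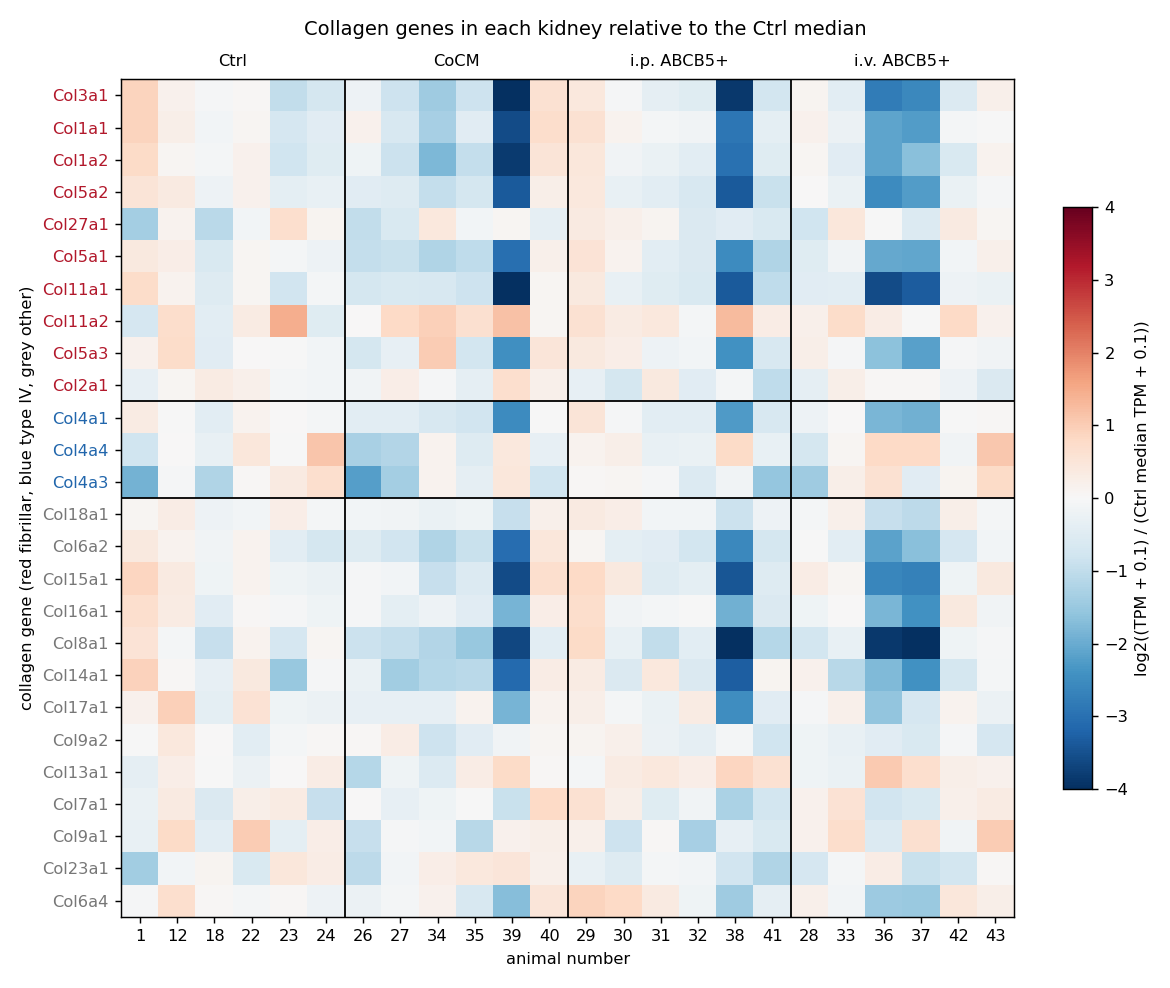
Level of the 26 collagen genes in each kidney as log2((TPM + 0.1) / (Ctrl median TPM + 0.1)), rows by class and columns by group and animal number, with values past 4 in either direction drawn in the end colours. Animals 36 to 39 show low values for 15 members, while Col4a3, Col4a4, Col27a1, Col11a2 and Col13a1 do not follow.

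Chains that assemble together were compared within each kidney. Type I collagen contains Col1a1 and Col1a2 chains. The Col1a1 to Col1a2 ratio of TPM lay between 1.38 and 2.89 over 24 kidneys, while Col1a1 itself varied 22.2-fold. The group medians of the ratio were 2.13 in Ctrl, 2.502 in CoCM, 2.27 in the i.p. group and 2.08 in the i.v. group. The Col4a3 to Col4a4 ratio lay between 0.495 and 1.55. The level of Col4a4 rests on fewer counts, because each TPM of Col4a4 corresponded to 0.196 times the counts that a TPM of Col4a3 did, so that the transcript used for it was shorter.

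The Col4a1 to Col4a3 ratio, chosen after the values were seen, sets the common type IV chain against the glomerular chain. It was 2.52, 4.99, 3.19 and 1.74 in animals 36, 37, 38 and 39 and 8.07 to 64.8 in the other 20. The highest value, 64.8, belonged to Ctrl animal 1.

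**Figure D3:**
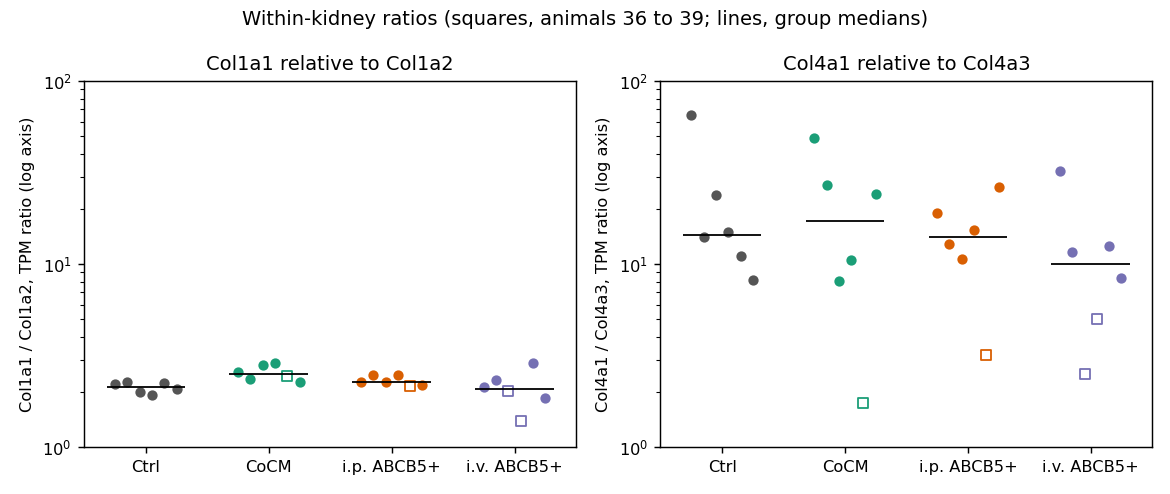
Ratio of TPM of Col1a1 to Col1a2 and of Col4a1 to Col4a3 in each kidney by group, on log axes of the same range, with lines at group medians and squares for animals 36 to 39. The Col1a1 to Col1a2 ratio stays between 1.38 and 2.89, while the Col4a1 to Col4a3 ratio spans 1.74 to 64.8.

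The bases before the start are given for Col1a2, Col5a2 and Col11a1, whose lowest values were found in animals 36 to 39 (Col1a2 in 3 of these 4), and for Col4a3, whose lowest values were not. Promoters were found for 21 of 26 members in the RefSeq table of the rat assembly GRCr8, and not for Col1a1, Col2a1, Col3a1, Col6a2 and Col14a1. Capitals mark matches, on either strand, to the motif CCAAT known from NF-Y sites, the GC box GGGCGG known from Sp1 sites, the TATA box in the form TATAAA and the AP-1 motif in the form TGANTCA. The 250 bases before the start of Col1a2 lie at chr4:33518307-33518556 on the plus strand, those of Col5a2 at chr9:55090152-55090401 on the minus strand, those of Col11a1 at chr2:204508886-204509135 on the plus strand and those of Col4a3 at chr9:91323740-91323989 on the plus strand.
Col1a2: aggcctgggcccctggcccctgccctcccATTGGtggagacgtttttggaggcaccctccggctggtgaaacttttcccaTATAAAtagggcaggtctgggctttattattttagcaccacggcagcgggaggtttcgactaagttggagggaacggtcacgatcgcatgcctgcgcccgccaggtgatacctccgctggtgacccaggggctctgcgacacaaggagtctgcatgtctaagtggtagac
Col5a2: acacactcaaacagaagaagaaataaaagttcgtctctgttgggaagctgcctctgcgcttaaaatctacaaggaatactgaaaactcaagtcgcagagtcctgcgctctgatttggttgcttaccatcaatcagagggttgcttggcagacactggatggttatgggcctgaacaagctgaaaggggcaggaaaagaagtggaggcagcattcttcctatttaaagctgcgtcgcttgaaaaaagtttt
Col11a1: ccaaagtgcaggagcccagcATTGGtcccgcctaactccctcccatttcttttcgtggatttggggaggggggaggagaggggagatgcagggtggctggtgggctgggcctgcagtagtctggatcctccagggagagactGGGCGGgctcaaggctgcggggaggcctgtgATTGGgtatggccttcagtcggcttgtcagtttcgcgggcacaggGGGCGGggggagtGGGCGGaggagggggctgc
Col4a3: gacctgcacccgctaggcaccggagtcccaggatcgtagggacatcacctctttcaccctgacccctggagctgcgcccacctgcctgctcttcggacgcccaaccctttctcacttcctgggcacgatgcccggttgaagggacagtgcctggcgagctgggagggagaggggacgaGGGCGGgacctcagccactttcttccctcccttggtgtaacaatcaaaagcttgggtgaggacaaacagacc

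The starts of Col4a1 and Col4a2 face away from each other and are 76 bases apart, at chr16:84885521-84885596, so both genes share this stretch, printed from the plus strand.
Col4a1 and Col4a2: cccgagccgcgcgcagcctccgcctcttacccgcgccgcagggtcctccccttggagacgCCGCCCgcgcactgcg

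Col4a3 and Col4a4 form a similar pair, with starts 412 bases apart. In the 250 bases before the start, GGGCGG was found in 12 of 21 collagen genes (57.1%), against 56.4% of 10323 tested genes and 32.4% of all 27457 promoters. CCAAT was found in 6 of 21 (28.6%), against 35.1% and 34.3%. TATAAA was found for Col1a2, Col13a1 and Col17a1 (14.3%), against 7.16% and 13.1%. TGANTCA was found in 0 of 21, against 4.57% and 6.36%. Col1a2 held a CCAAT and a TATAAA match, Col11a1 matches to CCAAT and GGGCGG, Col4a3 a match to GGGCGG and Col5a2 none. These are matches of letters in a fixed window and no binding was measured.

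The effect of the conditioned medium was assessed by comparing CoCM with Ctrl. Col5a1, a chain that starts and regulates fibrils, was at 9.49 to 19.2 TPM (median 14.7) in Ctrl and at 1.72 to 16.7 (median 7.38) in CoCM. In 5 of 6 CoCM kidneys it was below the Ctrl mean, and the groups overlapped. Its log2 fold change was −0.82 ± 0.42 (SE) with an adjusted p of 0.438 in edgeR and an unadjusted two-sided exact permutation p of 0.0260.

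Col8a1 was at 5.49 to 15.1 TPM (median 10.4) in Ctrl and at 0.748 to 7.76 (median 4.95) in CoCM. All 6 CoCM kidneys lay below the Ctrl mean, and 2 of them lay within the Ctrl range. Its log2 fold change was −1.02 ± 0.61 (adjusted p = 0.477 in edgeR, exact permutation p = 0.0195). Col4a1 was at 146 to 245 TPM (median 197) in Ctrl and at 34.01 to 195 (median 136) in CoCM. The log2 fold change was −0.56 ± 0.35 (adjusted p = 0.499 in edgeR, exact permutation p = 0.0346). In TPM, all 6 CoCM kidneys were below the Ctrl mean.

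Of the 26 members, 0 had an adjusted p under 0.05 in CoCM in edgeR, where 0.00783% of 12778 genes did. An unadjusted p under 0.05 was found for 0 members, against 11.9% of genes, and an unadjusted exact permutation p under 0.05 for 3, against 16.9%. DESeq2 and both limma scales also called 0 members after adjustment. The fold change was below 0 for 20 of 26 members, against 48.6% of genes, namely for 7 of 10 fibrillar, 3 of 3 type IV and 10 of 13 other collagens. The class medians of the log2 fold change were −0.50, −0.41 and −0.35 for fibrillar, type IV and other collagens, where that of all genes was 0.009. Without animals 36 to 39 they were −0.27, −0.53 and −0.19, and the same 3 genes had unadjusted p-values under 0.05 in edgeR, among 16.9% of genes. Col8a1 was then at −0.81 ± 0.31 (adjusted p = 0.238), Col5a1 at −0.63 ± 0.27 (adjusted p = 0.262) and Col4a1 at −0.37 ± 0.17 (adjusted p = 0.276). The 5 endothelial markers summed to 132 to 286 TPM (median 211) in CoCM and to 252 to 308 (median 280) in Ctrl. The fibroblast and mural markers summed to 399 to 1652 TPM (median 1033) in CoCM and 1020 to 1970 (median 1473) in Ctrl. The macrophage markers summed to 11.96 to 205 TPM (median 106) in CoCM and 112 to 206 (median 175) in Ctrl. All these ranges overlapped, and the part of these cell types in the collagen values was not tested.

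**Figure D4:**
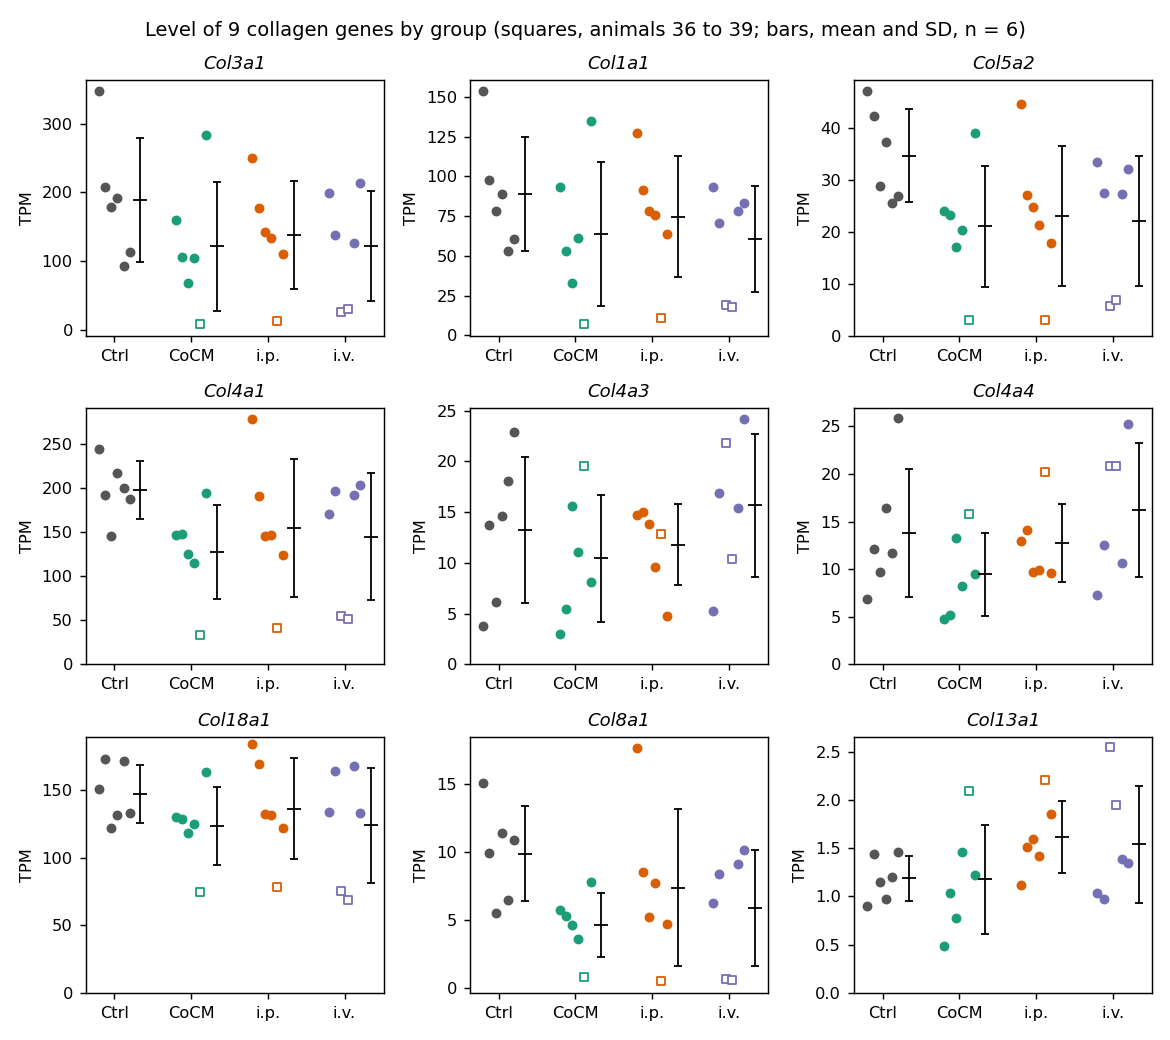
TPM of 9 collagen genes in each kidney by group, with bars for the mean and SD of 6 animals and squares for animals 36 to 39. The groups overlap for every gene shown, and the squares are lowest for Col3a1, Col1a1, Col5a2, Col4a1, Col18a1 and Col8a1 and highest for Col13a1.

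The effect of the cells was assessed by comparing each cell group with the same Ctrl animals, which the 3 comparisons therefore share. In i.p. ABCB5+, 0 of 26 members had an adjusted or an unadjusted p under 0.05 in edgeR, against 0% and 1.77% of genes. By exact permutation 1 member was under 0.05 before adjustment, against 2.35% of genes. That was Col13a1, at 0.900 to 1.46 TPM (median 1.17) in Ctrl and 1.12 to 2.21 (median 1.55) in i.p. ABCB5+, with 5 of 6 treated kidneys above the Ctrl mean. Its log2 fold change was 0.54 ± 0.33 (adjusted p = 0.978 in edgeR, exact permutation p = 0.0455) and 0.37 ± 0.22 without animals 36 to 39.

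Col9a1, a collagen that sits on type II fibrils, was at 0.455 to 1.41 TPM (median 0.650) in Ctrl and 0.197 to 0.769 (median 0.445) in i.p. ABCB5+. Its log2 fold change was −0.70 ± 0.38. Col6a2 was at 54.0 to 116 TPM (median 88.0) in Ctrl and 14.5 to 93.5 (median 59.4) in i.p. ABCB5+, a log2 fold change of −0.56 ± 0.41 (−0.37 ± 0.26 without animals 36 to 39). Both had an adjusted p of 0.978 in edgeR. The fold change was below 0 for 22 of 26 members, against 49.0% of genes, and the class medians were −0.41, −0.08 and −0.32. Without animals 36 to 39 it was below 0 for 20 members and the medians were −0.20, −0.17 and −0.16.

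In i.v. ABCB5+, 0 of 26 members had an adjusted or an unadjusted p under 0.05 in edgeR, against 0% and 5.78% of genes, and 0 by exact permutation, against 3.39%. Col9a2, a partner chain of Col9a1, was at 1.24 to 2.33 TPM (median 1.71) in Ctrl and 1.03 to 1.66 (median 1.29) in i.v. ABCB5+. Its log2 fold change was −0.32 ± 0.19 (adjusted p = 0.673 in edgeR) and all 6 treated kidneys were below the Ctrl mean. It was −0.35 ± 0.23 without animals 36 to 39. Col11a1 was at 6.46 to 18.2 TPM (median 11.0) in Ctrl and 0.831 to 9.60 (median 8.12) in i.v. ABCB5+. Its log2 fold change of −0.90 ± 0.57 was −0.41 ± 0.27 without animals 36 to 39.

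Col13a1 differed by 0.52 ± 0.33 between i.v. ABCB5+ and Ctrl with all animals and by −0.03 ± 0.24 without animals 36 to 39. The fold change was below 0 for 19 of 26 members, against 47.4% of genes. The class medians were −0.55 for fibrillar, 0.36 for type IV and −0.39 for other collagens, and −0.19, −0.01 and −0.12 without animals 36 to 39. The positive type IV median rested on Col4a3 (0.36 ± 0.43) and Col4a4 (0.37 ± 0.37), while Col4a1 was at −0.44 ± 0.35. Without animals 36 to 39, Col4a3 was at 0.21 ± 0.46, Col4a4 at −0.01 ± 0.34 and Col4a1 at −0.10 ± 0.18.

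**Figure D5:**
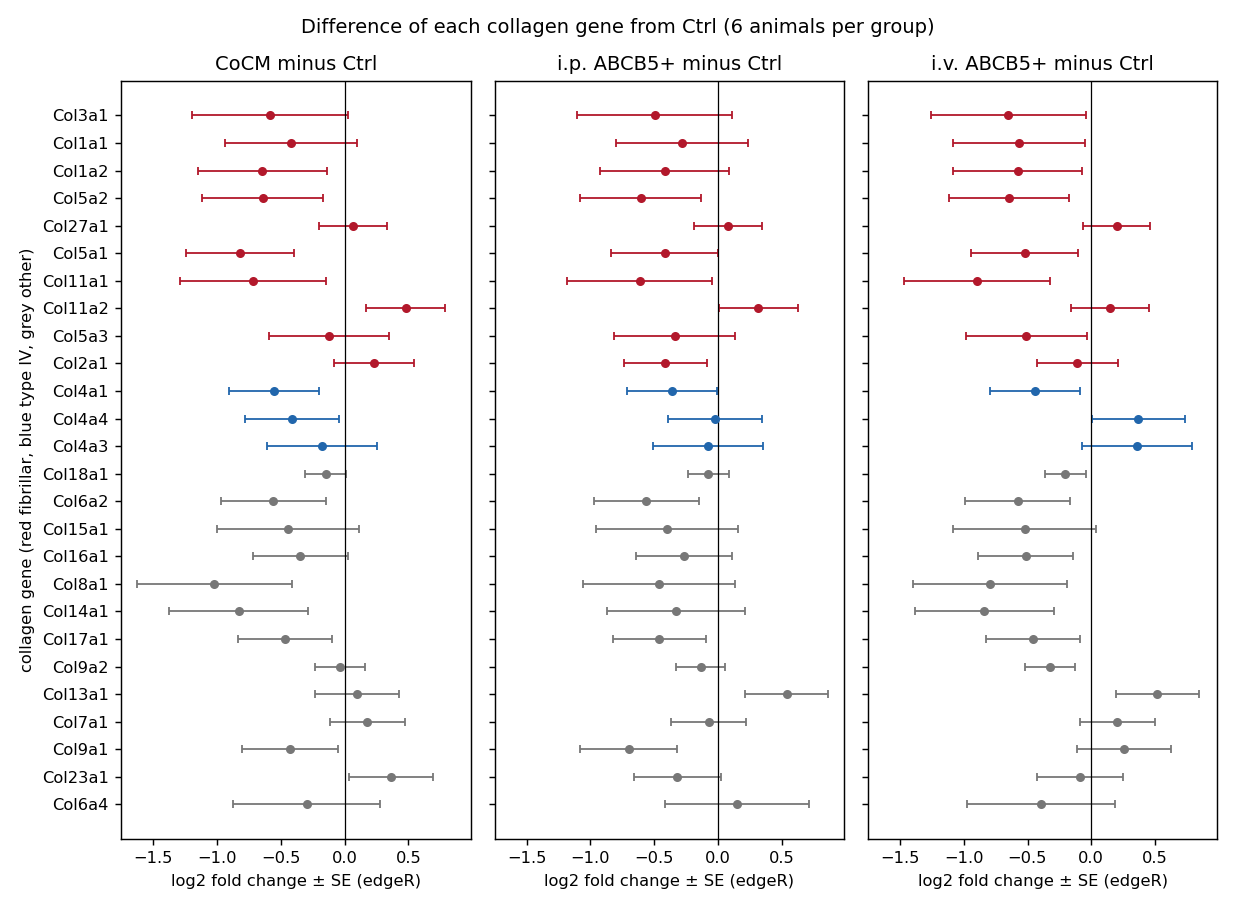
Log2 fold change from Ctrl with its standard error in edgeR for each collagen gene, for CoCM and for the i.p. and i.v. cells, coloured by class (6 animals per group, Ctrl shared). Most points lie below 0, for 20, 22 and 19 of 26 genes, and no gene passed the test.

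Both routes of giving the cells were then compared, i.p. minus i.v. ABCB5+. After adjustment 0 members had a p under 0.05 in edgeR, against 0% of genes. Before adjustment 1 member did, against 2.14% of genes, and it was Col9a1. Its level was 0.197 to 0.769 TPM (median 0.445) in i.p. ABCB5+ and 0.416 to 1.43 (median 0.913) in i.v. ABCB5+, with all 6 i.p. kidneys below the i.v. mean. The log2 fold change was −0.96 ± 0.38 (adjusted p = 0.9999 in edgeR, exact permutation p = 0.0411, a p under 0.05 in 1.78% of genes), and −1.02 ± 0.43 without animals 36 to 39. It was based on 8 to 27 counts per kidney in the i.p. and 14 to 51 in the i.v. group. Col4a4 and Col4a3 came next, at −0.39 ± 0.37 and −0.44 ± 0.43. The fold change was below 0 for 8 of 26 members, against 50.2% of genes, but for 15 without animals 36 to 39 and for 14 with voom quality weights. The class medians were 0.16 for fibrillar, −0.39 for type IV and 0.12 for other collagens, and −0.05, −0.26 and 0.03 without animals 36 to 39.

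CoCM was also compared with the average of both cell groups. An adjusted or unadjusted p under 0.05 was found for 0 members in edgeR, against 0% and 7.0% of genes. The smallest p-values belonged to Col23a1, a transmembrane collagen (0.56 ± 0.29, adjusted p = 0.688), Col2a1 (0.49 ± 0.28, adjusted p = 0.708) and Col4a4 (−0.59 ± 0.33, adjusted p = 0.708). The fibrillar median was −0.00, that of type IV −0.32 and that of other collagens −0.01, with 15 of 26 members below 0, against 51.9% of genes. Without animals 36 to 39 the medians were −0.10, −0.535 and −0.09 and 20 members were below 0. With voom quality weights the fibrillar median was −0.21 and 21 members were below 0. The test over all 4 groups gave 0 members before or after adjustment, against 4.71% and 0% of genes, and the smallest p-values were those of Col9a1, Col4a4 and Col13a1 (adjusted p = 0.817 each). In none of the comparisons between 2 groups did the groups fail to overlap for a member. The share of genes without overlap was 0.853% higher and 0.524% lower for CoCM and Ctrl, 0% and 0.047% for i.p. ABCB5+ and Ctrl, 0.0548% each way for i.v. ABCB5+ and Ctrl, and 0.0313% each way between the routes.

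Collagen chains are hydroxylated, folded, trimmed and cross-linked by a set of enzymes and chaperones, of which 29 of 32 listed were in the tables and 27 were tested. After adjustment 0 of 27 passed in each comparison in edgeR. Before adjustment 5 were lower and 0 higher in CoCM, where 5.96% of all genes were lower and 5.96% higher. In the i.p. group 0 passed. In the i.v. group 1 was higher and 1 lower, against 4.44% and 1.34% of genes. In CoCM the smallest p-value belonged to Tll1, a protease that removes the C-terminal propeptide of fibrillar procollagens. Its level was 4.89 ± 1.02 CPM (counts scaled to the library total, SD, n = 6) in Ctrl and 2.19 ± 0.930 in CoCM, and its log2 fold change was −1.15 ± 0.29 (adjusted p = 0.202 in edgeR). It was followed by P4ha1, a prolyl hydroxylase subunit, at −0.31 ± 0.14 (adjusted p = 0.405 in edgeR).

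In i.p. ABCB5+ the smallest p-values of the same list were those of Loxl3 (−0.52 ± 0.31), of the lysyl oxidase family, and Tll1 (−0.45 ± 0.28). In i.v. ABCB5+ they were those of Adamts3, a procollagen N-propeptidase (0.71 ± 0.32), and Plod2, a lysyl hydroxylase (−0.37 ± 0.18). Without animals 36 to 39, Adamts3 was at 0.36 ± 0.33 and Plod2 at −0.17 ± 0.18. In that fit 0 enzymes had an unadjusted p under 0.05 in i.v. ABCB5+ in edgeR, against 1.23% of genes. Between the routes the smallest p-values were those of Ppib, a prolyl isomerase (0.18 ± 0.11), and Plod2 (0.25 ± 0.18). The median log2 fold change of the list was −0.19 for CoCM, −0.16 for i.p. and −0.21 for i.v. cells. Without animals 36 to 39 it was −0.13, −0.09 and −0.07. In animals 36 to 39 the 4 lowest values were found for 18 of the 29, against 22.8% of 12790 genes. The 12790 met the count rule, which was not applied to the 29. Without these animals 5 enzymes again had an unadjusted p under 0.05 in CoCM, all of them lower, against 9.69% of genes, with Tll1 at −1.03 ± 0.26. Serpinh1, the collagen chaperone HSP47, was named after its values were seen and was at 163, 143, 156 and 152 TPM there, against 274 to 441 in the others.

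Collagen receptors and uptake genes numbered 9 of 11 in the tables, and 8 were tested. After adjustment 0 of 8 passed in each comparison in edgeR. Before adjustment 1 was lower in CoCM, against 5.96% of genes, and 0 passed in i.p. or i.v. ABCB5+, against 1.77% and 5.78%. Between the routes, for CoCM against the cells and over all 4 groups 0 passed, against 2.14%, 7.0% and 4.71%. The gene lower in CoCM was Itga1, the collagen-binding chain of integrin alpha1beta1, at −0.85 ± 0.40 (adjusted p = 0.411 in edgeR). Mrc2, an endocytic collagen receptor, followed at −0.81 ± 0.39. In i.p. ABCB5+ Itga11 was at −0.81 ± 0.52 and Ddr2, a receptor kinase for fibrillar collagen, at −0.28 ± 0.22. In i.v. ABCB5+ Itgb1 was at −0.21 ± 0.12 and Ctsk, the collagen-degrading protease cathepsin K, at −0.62 ± 0.42. Without animals 36 to 39 these 2 were at −0.05 ± 0.09 and −0.26 ± 0.29. Of the 9 receptors, 4 had their 4 lowest values in animals 36 to 39, against 22.8% of 12790 genes. The count rule was not applied to the 9 either. Without animals 36 to 39, 2 receptors had an unadjusted p under 0.05 in CoCM in edgeR, both lower, against 9.69% of genes. Itga1 was then at −0.86 ± 0.38. In i.p. ABCB5+ 1 receptor was lower at that threshold, against 0.675% of genes. It was Itga11, at −0.59 ± 0.28 (adjusted p = 0.9999 in edgeR).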

How the data were processed

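RNA of the left kidney was sequenced on a BGISEQ-500. Per the submitters' processing notes, reads were trimmed with Trim Galore 0.6.4 and quantified with kallisto, and the build was rn6. The study's methods name a human transcript annotation package and DESeq2. For each animal the authors deposited estimated counts, which were not normalized, and TPM values, scaled by the authors to transcript length and library total, for 17334 Entrez genes. Between 86.4% and 87.3% of the estimated counts were whole numbers. Symbols came from a RefSeq table of GRCr8, in which 17179 identifiers were found.

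Groups were taken from the labels. Estimated counts were rounded, filtered with filterByExpr (12778 genes), scaled by TMM and tested in edgeR 4.0.16 (R 4.3.3) with the quasi-likelihood F-test on all 24 samples, with Benjamini-Hochberg adjustment over all genes at 0.05. The standard error was the log2 fold change divided by the square root of F. DESeq2 1.42.0 and limma 3.58.1 (log2 TPM plus 1 or 0.1, and voom with quality weights), median-ratio size factors, no filter, only the groups compared, and fits without animals 36 to 39 were alternatives. Single genes were also tested by two-sided exact permutation over 924 splits (smallest p 0.00216). In simulated counts for CoCM minus Ctrl over 12778 genes, 200 of them changed 4-fold, edgeR called 89.0% of the changed genes, and 2.20% of its calls were false. Smaller changes, and kidneys that stand apart like animals 36 to 39, were not simulated. Levels between genes were compared in TPM. The values of 1 cell type marker list are not reported here. Between animals of a group, chi-square per degree of freedom was 10.6 or more, so no library was counted as a repeat of another in its group. Pairs across groups were not compared. All genes of the class and enzyme lists, the members and the animals left out were chosen with earlier results of these data known.

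Named were the 5 highest fibrillar collagens, all type IV members, the 8 highest other collagens, the 3 members with the smallest p in each comparison, the members nearest the count threshold, and the 2 genes with the smallest p of each enzyme and receptor list.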

Additional observations from a re-analysis of the deposited data

How the results depend on the processing

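No collagen gene had an adjusted p under 0.05 in any of the 6 comparisons under any alternative. The number with an unadjusted p under 0.05, given as 0 or 1 above, was 1 in CoCM with limma on log2(TPM + 1) and 1 on log2(TPM + 0.1) (10.3% and 10.1% of all genes), 2 with only the groups compared (16.0%), 3 without animals 36 to 39 (16.9%) and 8 with voom quality weights (7 lower, 1 higher, among 22.2% of genes). In i.p. ABCB5+ it was 1 when the other groups were left out (2.14% of genes) and 2 with quality weights (9.71%). Between routes it was 3 (6.93%), and over 4 groups 2 (17.7%), with quality weights. For CoCM against the cells it was 1 with both limma scales (3.99% and 4.13%) and 1 with quality weights (18.6%). The fibrillar median in CoCM was −0.85 with log2(TPM + 1) and −0.92 with log2(TPM + 0.1), where the median of all genes was −0.11 on the second scale. In i.v. ABCB5+ the fibrillar median was −0.19 and that of other collagens −0.12 without animals 36 to 39, and the latter −0.14 with quality weights. The log2 fold change of Col13a1 between i.v. ABCB5+ and Ctrl was −0.031 without animals 36 to 39. The median type IV share with Col15a1, Col18a1 and Col7a1 was 42.9% for Ctrl, 49.2% for CoCM, 46.5% for i.p. and 51.1% for i.v. cells, and that of type IV members alone was 28.6% for i.p. cells from summed CPM. The causes of these shifts were not tested. Another 212 counts and class medians, and 139 single-gene values and shares, kept their direction and their side of the threshold or moved by less than the spread between animals.

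Depth limits Col2a1, Col6a4, Col9a1 and Col23a1, which had under 10 counts in some kidneys, and Col8a1, whose highest-to-lowest ratio rests on 8 counts in animal 38. No paired analysis was possible because no animal number occurred in more than 1 group. A p that misses the threshold does not show equal levels.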
